A study of Mus musculus with 23 samples.

Results

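The genes of the T-cell receptor (TCR) complex were followed in bulk RNA of mouse mammary tumors. The set was defined by gene name and comprised Cd3d, Cd3e, Cd3g, Cd247, Trac, Trbc1, Trbc2, Trdc and Tcrg-C1, 9 of the 47643 gene identifiers in the count tables. All 9 were found by matching Ensembl identifiers to mouse symbols, by a rule that used names and no measured value, although the set was proposed with earlier results of these data known. The tumors came from female C57BL/6 PyMT mice, in which the polyoma virus middle T oncogene drives mammary carcinoma, and each library was made from a dissociated tumor by 3′ mRNA sequencing. One experiment treated PyMT WT mice with a neutralizing anti-IL-38 antibody (anti-IL-38, 6 libraries) or human IgG1 (isotype control, 5 libraries). The other treated PyMT WT mice with IgG (WT + IgG, 4 libraries) and PyMT IL-38 KO mice with either IgG (IL-38 KO + IgG, 4 libraries) or an antibody to the γδ TCR (IL-38 KO + anti-γδTCR, 4 libraries). Mice in all 5 groups carried the PyMT transgene and were dosed weekly over 5 weeks. Dosing began at a set tumor size in the first experiment and at a set age in the other. The doses differed too, and the IgG of the other experiment was from Armenian hamster. The study describes the anti-γδTCR antibody as one that blocks receptor signaling and does not deplete the cells. By flow cytometry it reports fewer γδ T cells in treated WT and IL-38 KO tumors, and fewer CD8+ T cells in treated KO tumors. With the same method it reports more CD8+ and γδ T cells in IL-38 KO than in WT tumors. It reports the same with anti-IL-38 against its isotype control. IL-38 is a cytokine of the interleukin-1 family with inhibitory actions on immune cells, and its gene, Il1f10, had 0 reads in all 23 libraries, so the knockout could not be checked from these counts.

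The TCR is the receptor by which T cells recognize antigen. It is a heterodimer, either of an α and a β chain or of a γ and a δ chain, and it reaches the cell surface only in a complex with CD3 signaling chains. CD3γ, CD3ε and CD3ζ are shared by αβ and γδ receptors, and most mouse γδ receptors lack CD3δ. The constant regions differ: Trac, Trbc1 and Trbc2 encode those of the αβ receptor and Trdc and Tcrg-C1 those of the γδ receptor. Bulk RNA does not show which cells made these transcripts, so they do not by themselves count cells of either lineage. In tumors these transcripts are usually read as a measure of infiltrating T cells. In bulk RNA, fewer T cells and less TCR RNA per T cell cannot be told apart.

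Counts of these genes depend on whether near-identical copies can be separated by 75-base reads from the 3′ end. Trbc1 and Trbc2, the alternative β constant genes, had 23 differences over 521 coding bases (95.6% identity). The last 120 coding bases of each are given from the GENCODE M21 annotation on GRCm38, 5′ to 3′ with the stop codon at the end, because the stretch shows how far reads near the 3′ end can tell the genes apart. Capitals mark the 19 bases at which they differ.

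Trbc1: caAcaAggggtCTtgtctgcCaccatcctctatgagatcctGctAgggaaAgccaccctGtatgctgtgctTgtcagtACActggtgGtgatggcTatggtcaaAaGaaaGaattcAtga
Trbc2: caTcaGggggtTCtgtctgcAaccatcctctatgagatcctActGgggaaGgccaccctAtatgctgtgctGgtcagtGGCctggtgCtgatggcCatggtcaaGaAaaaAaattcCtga

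The γ constant genes were more alike at the end of the coding sequence. Over their last 120 coding bases Tcrg-C1 and Tcrg-C2 differed at 3 bases, again in capitals. The stop codon is followed by 406 further bases in Tcrg-C1 and 411 in Tcrg-C2. Their coding ends thus lie outside the 3′ stretch for which read windows are counted below. They do not show how far reads from that stretch separate these genes.

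Tcrg-C1: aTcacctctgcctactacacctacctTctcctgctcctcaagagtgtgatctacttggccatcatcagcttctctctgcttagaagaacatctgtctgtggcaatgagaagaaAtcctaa
Tcrg-C2: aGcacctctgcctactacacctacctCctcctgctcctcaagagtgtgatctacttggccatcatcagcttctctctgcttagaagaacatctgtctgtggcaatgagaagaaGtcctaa

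Over the last 400 bases of the transcripts, which include the untranslated 3′ end, none of the 326 windows of 75 bases from Cd3d, Cd3e, Cd3g, Cd247, Trac, Trdc or Trbc1 occurred in the transcript of another gene. Of the Trbc2 windows 16 (4.91%) also occurred in Trbc1, and of the Tcrg-C1 windows 30 (9.20%) also occurred in Tcrg-C2. Reads from these windows could be lost or assigned to the wrong copy, so the Trbc and Tcrg-C counts carry this uncertainty. In GRCm38, Cd3g (chr9:44969572-44980431), Cd3d (chr9:44981786-44987339) and Cd3e (chr9:44998740-45009627) are neighbours that do not overlap, while Cd247 is at chr1:165788681-165877277. Trdc (chr14:54142851-54148868) precedes Trac (chr14:54220521-54224206) in the joint α and δ locus. Trbc1 (chr6:41538218-41539881), Trbc2 (chr6:41546730-41548352) and Tcrg-C1 (chr13:19214103-19217024) are in the β and γ loci. These positions belong to the annotation used here, whereas the submitters' processing notes name GRCm39.

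TCR complex transcripts were scarce. The libraries held 6273049 to 15879164 reads assigned to genes, and the 9 genes together took 23 to 357 of them, with a median of 163. Of the 207 values, 9 were 0, in 5 libraries, and the other 18 libraries had at least 1 read of every gene. Counting error alone lets a true level of up to 3 reads give 0, which in these libraries is 0.189 to 0.478 CPM. CPM, the reads of a gene scaled to 1000000 gene reads in each library, were used without division by transcript length, since each transcript gives reads near its 3′ end. Intervals and limits cover counting error only, since amplified copies of 1 molecule are not marked as such.

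Among the signaling chains, CD3ε (Cd3e) forms heterodimers with CD3γ and CD3δ and is required for surface expression of any TCR. Cd3e had 18, 16, 5, 23 and 0 reads in isotype control libraries 1 to 5 and 17, 13, 10, 8, 17 and 14 reads in anti-IL-38 libraries 1 to 6. It had 20, 21, 28 and 29 reads in the WT + IgG libraries, 4, 3, 46 and 4 in the IL-38 KO + IgG libraries and 7, 7, 2 and 15 in the IL-38 KO + anti-γδTCR libraries. Thus 3 of the 4 KO + IgG tumors were below every WT + IgG tumor, and the remaining KO tumor was above all of them. In CPM, the Cd3e mean was 0.923 ± 0.725 (SD, n = 5) in isotype control, 1.09 ± 0.306 (SD, n = 6) in anti-IL-38, 2.02 ± 0.416 (SD, n = 4) in WT + IgG, 0.977 ± 1.28 (SD, n = 4) in IL-38 KO + IgG and 0.929 ± 0.575 (SD, n = 4) in IL-38 KO + anti-γδTCR. The 0 in isotype control 5 allows a level of up to 0.223 CPM.

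CD3δ (Cd3d), the partner of CD3ε in αβ T cells, had 23, 67, 24, 22 and 0 reads in isotype control libraries 1 to 5 and 29, 41, 23, 39, 27 and 6 in the anti-IL-38 libraries. It had 37, 31, 42 and 54 reads in WT + IgG, 13, 8, 41 and 26 in IL-38 KO + IgG and 13, 24, 10 and 21 in IL-38 KO + anti-γδTCR. Isotype controls 2 and 5 held the highest and the lowest Cd3d level of all 23 libraries, so the control group of the neutralization experiment spanned the whole range. Mean CPM of Cd3d was 1.98 ± 1.76 (SD, n = 5) in isotype control, 2.22 ± 1.01 (SD, n = 6) in anti-IL-38, 3.40 ± 0.971 (SD, n = 4) in WT + IgG, 1.81 ± 1.17 (SD, n = 4) in IL-38 KO + IgG and 2.10 ± 0.595 (SD, n = 4) in IL-38 KO + anti-γδTCR. The upper limit for its 0 in isotype control 5 is again 0.223 CPM.

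CD3γ (Cd3g), the other partner of CD3ε, was the least abundant CD3 chain by reads, with 158 in all libraries. Its counts were 4, 1, 0, 2 and 5 in isotype control and 1, 15, 8, 9, 7 and 2 in anti-IL-38. The blockade experiment gave 2, 2, 23 and 8 reads in WT + IgG, 5, 17, 9 and 10 in IL-38 KO + IgG and 8, 9, 4 and 7 in IL-38 KO + anti-γδTCR. All isotype controls had at most 5 reads, while 4 of the 6 anti-IL-38 libraries had more and the other 2 were inside the control range. Group means of Cd3g were 0.181 ± 0.157 CPM (SD, n = 5) in isotype control, 0.564 ± 0.377 CPM (SD, n = 6) in anti-IL-38, 0.700 ± 0.755 CPM (SD, n = 4) in WT + IgG, 0.859 ± 0.445 CPM (SD, n = 4) in IL-38 KO + IgG and 0.871 ± 0.190 CPM (SD, n = 4) in IL-38 KO + anti-γδTCR. The 0 in isotype control 3 allows up to 0.205 CPM.

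CD3ζ (Cd247), the chain that carries most of the signaling motifs of the complex and that NK cells also express, had 33, 26, 1, 9 and 0 reads in isotype control and 32, 18, 8, 27, 13 and 12 in anti-IL-38. It had 18, 32, 36 and 42 reads in WT + IgG, 14, 21, 32 and 59 in IL-38 KO + IgG and 19, 23, 9 and 25 in IL-38 KO + anti-γδTCR. KO + IgG 4 had the highest Cd247 level of all libraries at 6.84 CPM, and the 3 other tumors of its group were within the range of the anti-γδTCR tumors or just below it. Cd247 averaged 1.04 ± 1.14 CPM (SD, n = 5) in isotype control, 1.50 ± 0.738 CPM (SD, n = 6) in anti-IL-38, 2.63 ± 0.873 CPM (SD, n = 4) in WT + IgG, 2.90 ± 2.66 CPM (SD, n = 4) in IL-38 KO + IgG and 2.33 ± 0.631 CPM (SD, n = 4) in IL-38 KO + anti-γδTCR. In isotype control 5, where it was 0, the upper limit is 0.223 CPM.

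Of the αβ receptor genes, Trac, the single α constant gene, was read in every library. Its counts were 3, 18, 26, 19 and 5 in isotype control, 25, 49, 15, 20, 23 and 10 in anti-IL-38, 25, 21, 49 and 44 in WT + IgG, 3, 30, 23 and 41 in IL-38 KO + IgG and 28, 18, 14 and 23 in IL-38 KO + anti-γδTCR. Mean Trac levels were 1.02 ± 0.680 CPM (SD, n = 5) in isotype control, 1.88 ± 0.898 CPM (SD, n = 6) in anti-IL-38, 2.86 ± 1.12 CPM (SD, n = 4) in WT + IgG, 2.19 ± 1.91 CPM (SD, n = 4) in IL-38 KO + IgG and 2.61 ± 0.629 CPM (SD, n = 4) in IL-38 KO + anti-γδTCR. The KO + IgG tumors were spread most widely, from 0.238 CPM in KO + IgG 1 to 4.76 CPM in KO + IgG 4.

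Trbc2 contributed 1453 of the 4096 reads of the 9 genes (35.5%) and had the most reads of them in all 23 libraries. It had 58, 102, 69, 39 and 11 reads in isotype control, 53, 112, 50, 72, 95 and 38 in anti-IL-38, 93, 43, 57 and 150 in WT + IgG, 49, 31, 70 and 96 in IL-38 KO + IgG and 44, 53, 34 and 34 in IL-38 KO + anti-γδTCR. The Trbc2 mean was 4.06 ± 2.42 CPM (SD, n = 5) in isotype control, 5.69 ± 2.06 CPM (SD, n = 6) in anti-IL-38, 7.25 ± 4.44 CPM (SD, n = 4) in WT + IgG, 5.45 ± 3.88 CPM (SD, n = 4) in IL-38 KO + IgG and 5.24 ± 0.981 CPM (SD, n = 4) in IL-38 KO + anti-γδTCR. WT + IgG 4 and KO + IgG 4 were the highest libraries, at 13.2 and 11.1 CPM.

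Trbc1 had fewer reads than Trbc2 in all 23 libraries. Its counts were 9, 1, 14, 16 and 1 in isotype control, 11, 7, 5, 20, 6 and 6 in anti-IL-38, 24, 6, 13 and 25 in WT + IgG, 9, 9, 8 and 9 in IL-38 KO + IgG and 9, 9, 2 and 8 in IL-38 KO + anti-γδTCR. Of all Trbc reads 13.5% were Trbc1, and the share ranged from 0.971% to 29.1% between libraries with a median of 14.3%. The means were 0.600 ± 0.512 CPM (SD, n = 5), 0.770 ± 0.527 CPM (SD, n = 6), 1.44 ± 0.843 CPM (SD, n = 4), 0.739 ± 0.224 CPM (SD, n = 4) and 0.851 ± 0.366 CPM (SD, n = 4) in the same order of groups.

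Of the γδ receptor genes, Trdc, the single δ constant gene, had 15, 2, 8, 4 and 0 reads in isotype control and 0, 17, 4, 11, 4 and 1 in anti-IL-38. It had 27, 13, 30 and 2 reads in WT + IgG, 12, 6, 13 and 0 in IL-38 KO + IgG and 4, 12, 2 and 9 in IL-38 KO + anti-γδTCR. Every group therefore held libraries with at most 2 reads as well as libraries with at least 12. In CPM, Trdc averaged 0.431 ± 0.458 (SD, n = 5) in isotype control, 0.495 ± 0.499 (SD, n = 6) in anti-IL-38, 1.46 ± 1.06 (SD, n = 4) in WT + IgG, 0.558 ± 0.425 (SD, n = 4) in IL-38 KO + IgG and 0.811 ± 0.494 (SD, n = 4) in IL-38 KO + anti-γδTCR. The zeros allow up to 0.223 CPM in isotype control 5, 0.224 CPM in anti-IL-38 1 and 0.348 CPM in KO + IgG 4. All 3 of these libraries had Tcrg-C1 reads, so a count of 0 for Trdc did not mean that both γδ constant genes went undetected.

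Tcrg-C1, a γ constant gene, was the rarest of the 9 with 73 reads in all. It had 0, 4, 0, 11 and 1 reads in isotype control, 6, 7, 2, 4, 3 and 1 in anti-IL-38, 1, 2, 4 and 3 in WT + IgG, 3, 2, 5 and 1 in IL-38 KO + IgG and 3, 7, 1 and 2 in IL-38 KO + anti-γδTCR. The 0 allows up to 0.233 CPM in isotype control 1 and 0.205 CPM in isotype control 3. Its sister genes had more reads, with 174 for Tcrg-C2 and 160 for Tcrg-C4, whereas Tcrg-C3 had 1. Of the 408 γ constant reads, Tcrg-C1 thus took 17.9%. Means of Tcrg-C1 were 0.237 ± 0.348 CPM (SD, n = 5) in isotype control, 0.303 ± 0.162 CPM (SD, n = 6) in anti-IL-38, 0.203 ± 0.100 CPM (SD, n = 4) in WT + IgG, 0.206 ± 0.0888 CPM (SD, n = 4) in IL-38 KO + IgG and 0.395 ± 0.296 CPM (SD, n = 4) in IL-38 KO + anti-γδTCR.

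**Figure D1:**
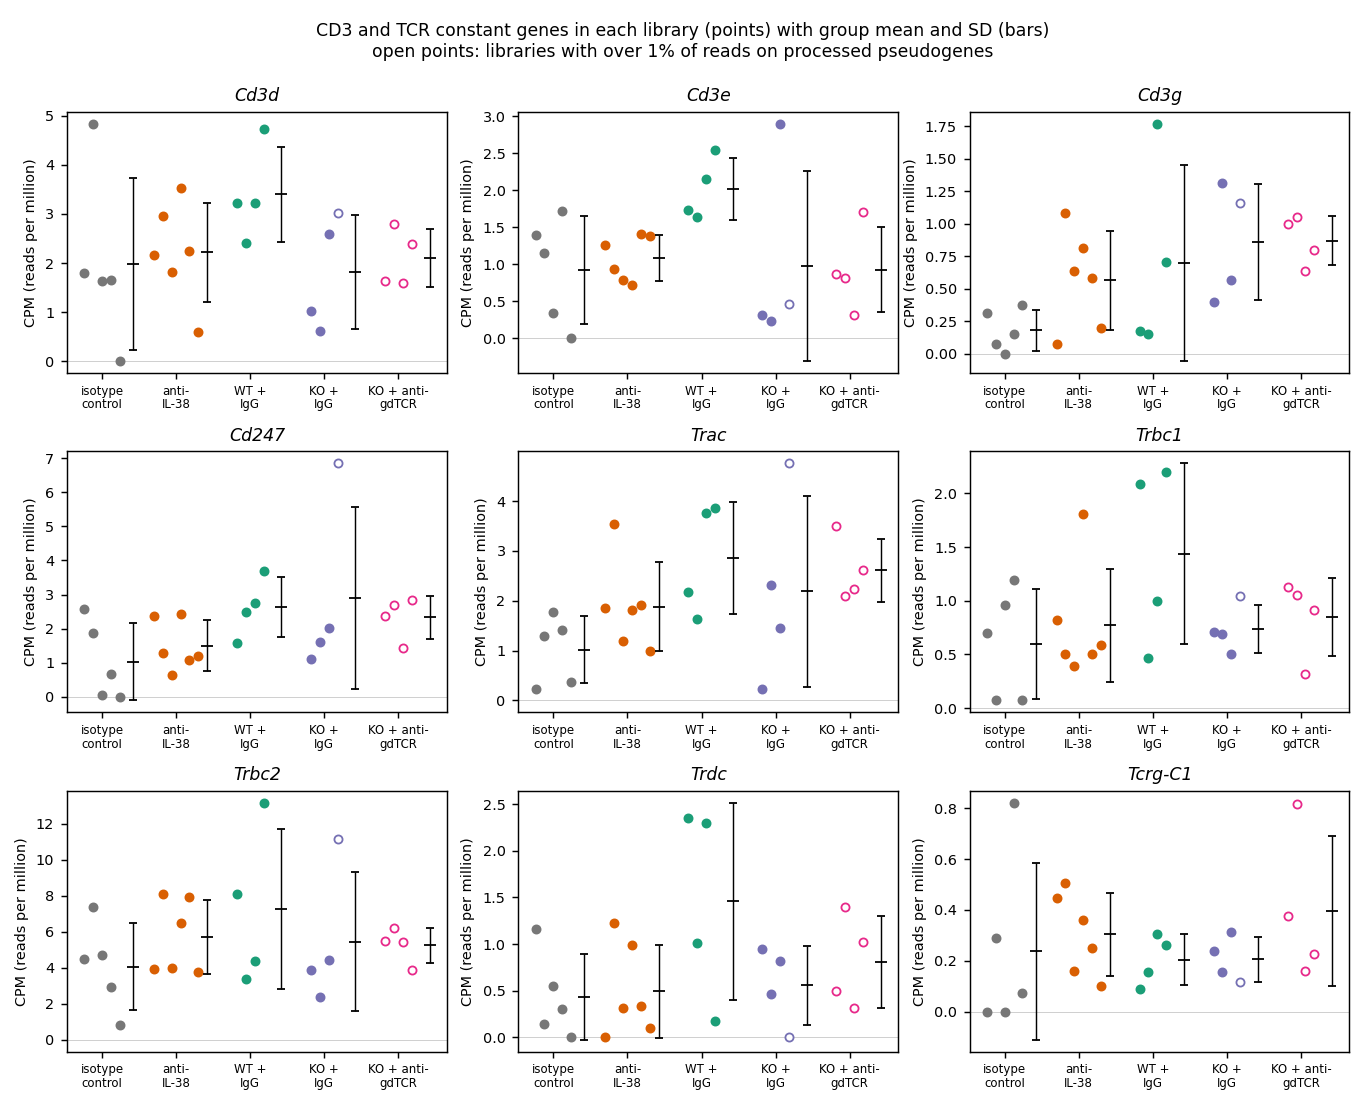
Level of each gene in CPM (reads scaled to a fixed total, vertical axis) in every library, by group; points are libraries and bars show the group mean and SD. All groups overlap within their experiment, isotype control 5 is at or near 0 for most genes, and IL-38 KO + IgG 4 is the top point for Cd247 and Trac.

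Ordering the groups by mean CPM put WT + IgG highest for 6 of the 9 genes and isotype control lowest for 7. Of the 36 pairs of neighbouring groups in these orders, 35 had overlapping ranges and 32 differed by no more than the larger of both SDs. Neighbours in such an order are the closest groups, so these counts say little, and they were not taken for all genes. Among neighbours the exception was Cd3e in anti-IL-38 against WT + IgG, which come from different experiments. Groups farther apart could also separate between experiments. Cd3g reached 0.372 CPM in isotype control and began at 0.396 CPM in KO + IgG. Trac reached 1.78 CPM in isotype control and began at 2.10 CPM in anti-γδTCR. The order is therefore given as a description.

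Some libraries stood apart before any comparison was made. Processed pseudogenes took 1.31% to 1.98% of the reads in 5 libraries, namely KO + IgG 4 and all 4 anti-γδTCR libraries, against 0.0943% to 0.191% in the other 18. In the same 5 libraries the summed level of 5 pan-leukocyte markers, most of which came from Laptm5, Cd52 and Ptprc, was 360 to 424 CPM against 879 to 1828 CPM, and that of 6 macrophage markers 629 to 1022 CPM against 1373 to 2772 CPM. Ptprc, the gene of the common leukocyte antigen CD45, overlapped instead, at 163 to 225 CPM in the 5 libraries and 138 to 333 CPM in the other 18. The TCR complex sums overlapped between both sets of libraries. The 4 CD3 chains summed to 3.99 to 11.5 CPM in the 5 libraries and to 0.372 to 11.7 CPM in the other 18, and the αβ constant genes to 7.39 to 16.9 CPM and 1.27 to 19.2 CPM, respectively. The part of this difference between libraries in the results below was not tested.

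**Figure D2:**
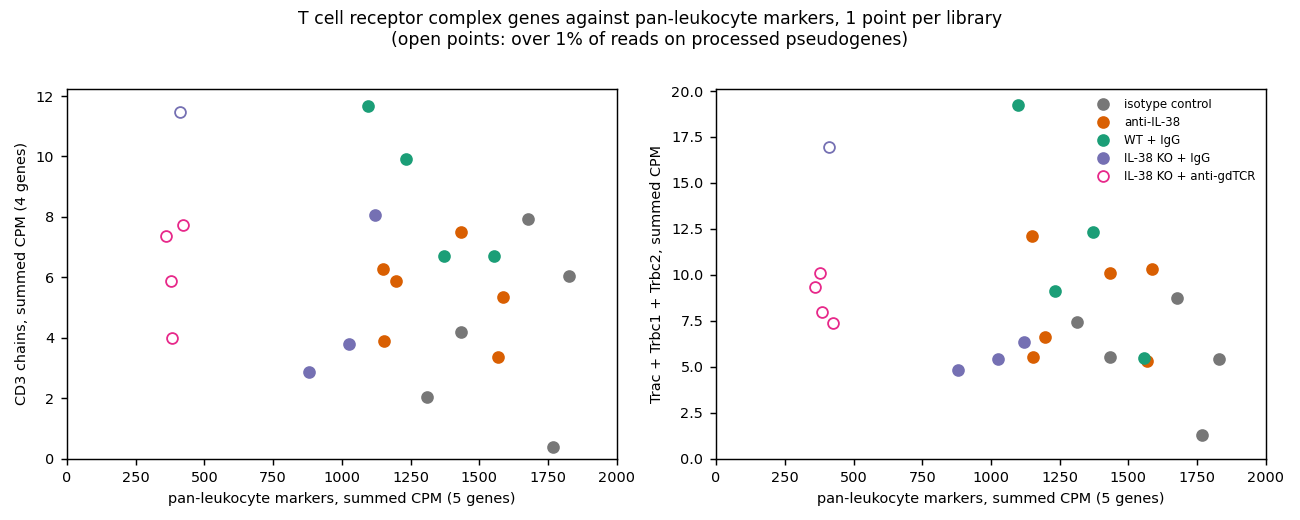
Summed CPM of the 4 CD3 chains (left) and of Trac, Trbc1 and Trbc2 (right) against the summed CPM of 5 pan-leukocyte markers, 1 point per library, open for the 5 libraries with over 1% of reads on processed pseudogenes. The open points are at 360 to 424 CPM of leukocyte markers but within the vertical range of the others, and 1 isotype control (number 5) is lowest on both vertical axes.

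Isotype control 5 was the other library that stood apart. It had 5 reads of CD3 chains in 13433607, all from Cd3g, and 18 reads of the 5 constant genes. Its pan-leukocyte sum of 1766 CPM was the second highest. It was also the lowest of the 23 libraries for the summed levels of T-lineage transcription factors (128 CPM), NK markers (1.19 CPM), lymph node markers (2.38 CPM) and luminal epithelial markers (1311 CPM). The sum of the TCR proximal signaling genes (244 CPM) was the highest of the 23. Of these genes, Plcg1 had 959 reads and Csk 891, and both are widely expressed outside T cells. Lck, the kinase that phosphorylates the CD3 chains, had 96 reads and was picked out after its values were seen.

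The first comparison asked whether neutralizing IL-38 changed TCR complex transcripts in tumors of WT mice. All 8 genes that could be fitted were higher on average in anti-IL-38 than in isotype control, but none passed the test and every range overlapped. On the log2(normalized count + 1) scale, Cd247 differed by 1.47 (SE 0.83, 95% CI −0.30 to 3.25), Cd3g by 1.33 (SE 0.70, CI −0.18 to 2.83) and Trac by 1.08 (SE 0.52, CI −0.03 to 2.20). Trac had the smallest limma adjusted p of the 8, 0.481, and that of Cd3g was 0.509. The differences were 0.86 for Cd3d, 0.87 for Cd3e, 0.72 for Trbc1, 0.75 for Trbc2 and 0.19 for Trdc, with a median over the 8 genes of 0.87 against 0.00 over all 16002 genes tested. In this comparison limma called 0 of the 16002 genes (0%), while 1682, none of them from the TCR complex, had an unadjusted p under 0.05. edgeR called 0 genes and DESeq2 75, in both cases without a TCR complex gene.

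These differences rested in part on isotype control 5. Without it, Cd3d differed by −0.11, Cd3e by 0.11, Trdc by −0.35, Trbc1 by 0.31, Trbc2 by 0.27 and Cd247 by 0.78, while Trac kept 0.85 and Cd3g had 1.60. For Cd3g the direction was thus the same and the size larger. Tcrg-C1 was below the minimum mean of 5 normalized counts. Its mean was 3.93 ± 2.05 (SD, n = 6) normalized counts in anti-IL-38 and 2.95 ± 4.29 (SD, n = 5) in isotype control, which gave p = 0.238 in an exact permutation test run two-sided.

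The second comparison, IL-38 KO against WT under IgG, asked the same of a genetic loss of IL-38. On the log2 scale 7 of the 8 differences were below 0 in the knockout and that of Cd3g was above 0, and again none passed the test. Cd247 had the higher mean in the knockout, with 34.8 ± 32.6 normalized counts against 30.8 ± 10.2 in WT (SD, n = 4 each), and was above 0 by edgeR (0.18) and DESeq2 (0.17). Cd3e differed most, by −1.59 (SE 0.66, CI −3.04 to −0.15; limma adjusted p = 0.369). Trdc differed by −1.30 (SE 0.94, CI −3.36 to 0.76) and Cd3d by −1.06 (SE 0.49, CI −2.13 to 0.01; limma adjusted p = 0.414). For the remaining genes the differences were −0.82 for Trac, −0.69 for Trbc1, −0.41 for Trbc2, −0.13 for Cd247 and 0.67 for Cd3g. The median of the 8 was −0.75, against 0.01 over all genes.

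Across the 16563 genes tested limma called 1 (0.00604%), and 2010 had an unadjusted p under 0.05, among them Cd3e alone from the TCR complex. edgeR called 0 genes and DESeq2 298, again without a TCR complex gene. The Cd3e difference depended on KO + IgG 3, the tumor with 46 reads, and was −2.31 (CI −3.36 to −1.26) without it, with a limma adjusted p of 0.288. Leaving out KO + IgG 4 instead gave −1.50 for Cd3e, −1.39 for Cd3d (limma adjusted p = 0.223), −1.37 for Trac, −0.67 for Cd247 and −0.49 for Trdc. Tcrg-C1 had means of 2.45 ± 1.06 normalized counts in the knockout and 2.38 ± 1.16 in WT (SD, n = 4 each; exact permutation test, p = 0.914).

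The third comparison asked what the anti-γδTCR antibody changed in IL-38 KO tumors. Neither γδ constant gene was lower with the antibody. The study reports fewer γδ T cells in such tumors by flow cytometry, which counts cells and does not measure RNA. Trdc differed by 0.87 (SE 0.79, CI −0.89 to 2.64), from 0 to 13 reads with IgG and 2 to 12 with the antibody. It differed by 0.15 without KO + IgG 4, which had 0 Trdc reads. Since the scale also understates fold changes of low genes, the interval sets no firm limit on a fall. Tcrg-C1 had 3.99 ± 2.84 normalized counts with the antibody and 1.87 ± 0.815 with IgG (SD, n = 4 each; exact permutation test, p = 0.171). Both genes had ranges that overlapped between the groups. Trac differed by 0.92 (SE 0.71, CI −0.65 to 2.48), Cd3d by 0.57, Cd3e by 0.52, Trbc2 by 0.33, Cd3g by 0.28, Trbc1 by 0.25 and Cd247 by 0.17. On the log2 scale all 8 fitted genes were above 0 with a median of 0.42, against 0.02 over all genes, and none passed the test. By edgeR and DESeq2, Cd247 was below 0, at −0.17 and −0.15, and its linear mean was lower with the antibody too.

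limma called 0 of the 16481 genes (0%) in this comparison, with 3570 at an unadjusted p under 0.05, none of them from the TCR complex. edgeR called 0 and DESeq2 1030 genes, without a TCR complex gene. KO + IgG 4, which shares the high pseudogene share of the anti-γδTCR libraries, decided the count of calls. Without it limma called 2357 of 16480 genes (14.3%), still none of the 8, and Trac differed by 1.47 (CI 0.12 to 2.82; limma adjusted p = 0.152), Trbc2 by 0.76 (CI 0.04 to 1.49; limma adjusted p = 0.169) and Trdc by 0.15. With that library left out, the pseudogene share and the antibody cannot be told apart.

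The study also set both ways of inhibiting IL-38 against both controls. Over these 10 and 9 libraries Cd3g differed by 1.01 (SE 0.53, CI −0.09 to 2.10; limma adjusted p = 0.503) and Cd247 by 0.73 (CI −0.56 to 2.03). The other differences were 0.26 for Trac, 0.25 for Trbc2, 0.09 for Trbc1, 0.03 for Cd3d, −0.19 for Cd3e and −0.48 for Trdc. limma called 0 of 16352 genes (0%), with 1725 at an unadjusted p under 0.05 and none of the TCR complex among them, while edgeR called 1 and DESeq2 70 genes, none of the TCR complex. With experiment as a term none passed either, and the smallest limma adjusted p of the 8 was 0.336. In the edgeR and DESeq2 fits, Cd3d was at −0.27 by both and Trbc1 at −0.29 by both. For Tcrg-C1 the means were 3.34 ± 1.82 normalized counts (SD, n = 10) and 2.70 ± 3.13 (SD, n = 9; exact permutation test, p = 0.229).

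Since the signs of most genes differed between the antibody and the knockout, the difference between both effects was tested itself. The experiments also differ in the start of dosing and in the control IgG. This contrast cannot tell those apart from the way IL-38 was inhibited. Taken as the anti-IL-38 difference minus the knockout difference, with signs, this difference was above 0 for all 8 fitted genes, with a median of 1.55 on the log2 scale against 0.02 over all genes. Where the signs were opposite, a value above 0 follows from the differences already given, so this count is no further result. For Cd3e, Cd3d and Trdc the knockout difference was farther from 0 than that with anti-IL-38. The difference between both was 2.46 for Cd3e (SE 1.03, CI 0.31 to 4.61; limma adjusted p = 0.597) and 1.90 for Trac (SE 0.91, CI 0.01 to 3.79; limma adjusted p = 0.650), the 2 genes with an unadjusted p under 0.05. Cd3d followed with 1.93 (SE 1.14, CI −0.45 to 4.30) and Cd247 with 1.61 (SE 1.12, CI −0.73 to 3.95). limma called 1 of 16352 genes (0.00612%), with 1255 at an unadjusted p under 0.05, while edgeR called 0 and DESeq2 10, and none of these calls was a TCR complex gene. Without isotype control 5 the median difference was 0.95.

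**Figure D3:**
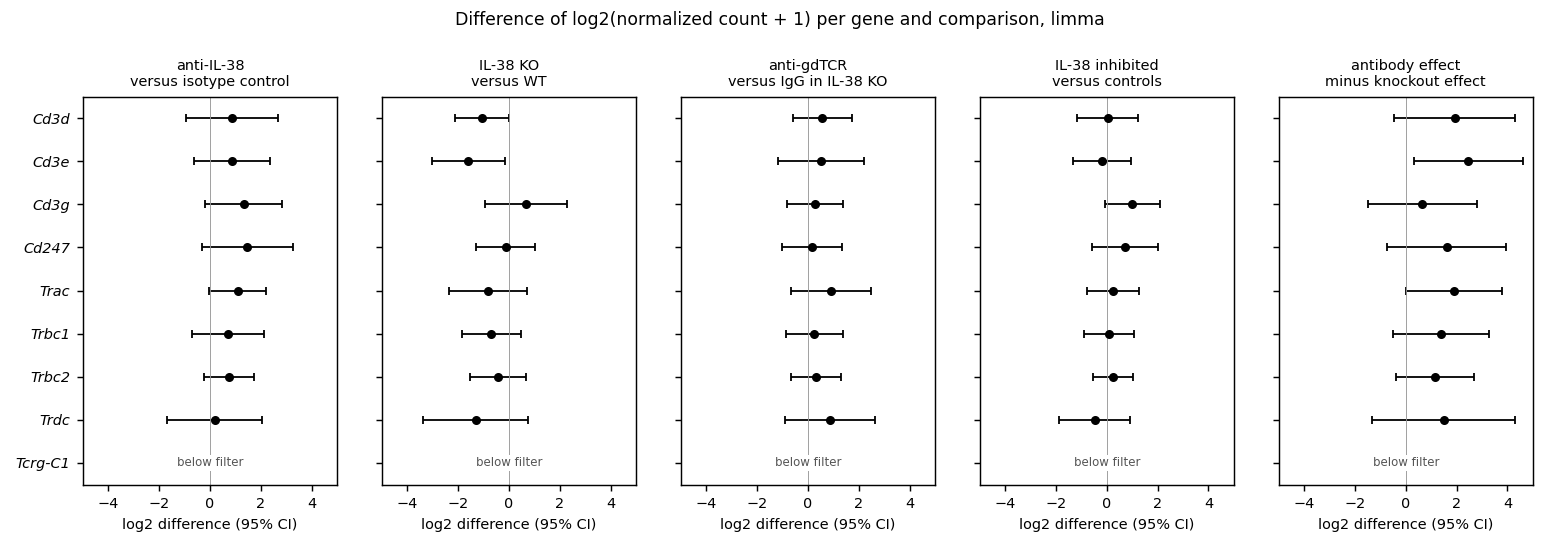
Difference between groups on the log2(normalized count + 1) scale (horizontal axis) for each gene, with the 95% confidence interval of limma, in the 5 comparisons. Points are right of 0 for all 8 fitted genes in the first comparison and left of 0 for 7 of 8 in the second, and an interval that excludes 0 is seen for Cd3e in the second and for Cd3e and Trac in the last, none with an adjusted p under 0.05. Tcrg-C1 was below the minimum mean and was not fitted.

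The share of Trdc and Tcrg-C1 in the reads of the 5 constant genes, called the γδ share here, was described with no test. It is a share of reads and not of cells. The mean share was 10.3% ± 6.37 (SD, n = 5) in isotype control, 7.91% ± 3.58 (SD, n = 6) in anti-IL-38, 14.6% ± 8.64 (SD, n = 4) in WT + IgG, 11.4% ± 8.16 (SD, n = 4) in IL-38 KO + IgG and 11.8% ± 6.17 (SD, n = 4) in IL-38 KO + anti-γδTCR. Single libraries ranged from 0.680% (1 of 147 reads, exact binomial 95% CI 0.0172 to 3.73%) in KO + IgG 4 to 22.2% (34 of 153 reads, CI 15.9 to 29.6%) in WT + IgG 3. WT + IgG 4, with 5 of 224 reads, was at 2.23% (CI 0.729 to 5.13%), and its interval did not reach those of the 3 other WT + IgG tumors, at 16.5%, 17.6% and 22.2%. This depended on Tcrg-C1 being the only γ gene counted. With Tcrg-C2, Tcrg-C3 and Tcrg-C4 added, WT + IgG 4 was at 16.4% (43 of 262 reads), beside 18.4% (32 of 174 reads) in WT + IgG 1, and the lowest libraries were anti-IL-38 6 at 5.26%, KO + IgG 4 at 7.59% and isotype control 3 at 11.4%. On this wider count anti-γδTCR 2 was at 36%, above the highest KO + IgG tumor (31.5%). The other anti-γδTCR tumors, at 13.8%, 20.6% and 25.3%, were inside the KO + IgG range only because of KO + IgG 4. They were below KO + IgG 1, 2 and 3, at 31.5%, 31.4% and 29.4%. With Tcrg-C1 as the only γ gene, the anti-γδTCR tumors, at 7.95%, 19.2%, 5.66% and 14.5%, were inside the range of the IgG-treated KO tumors. The low end of that range was KO + IgG 4 alone. KO + IgG 1, 2 and 3 were at 19.7%, 10.3% and 15.1%, and anti-γδTCR 1 and 3 were below all of these. Isotype control 5 gave 1 of 18 reads, 5.56% with an interval of 0.141 to 27.3%, and can barely be placed.

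**Figure D4:**
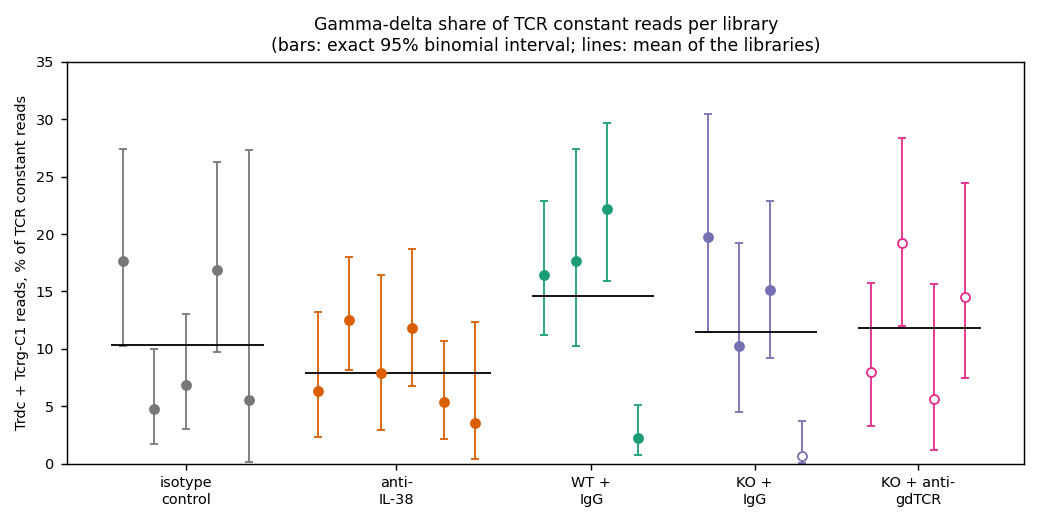
Share of Trdc and Tcrg-C1 in the reads of the 5 TCR constant genes (%, vertical axis) per library, with exact 95% binomial intervals; horizontal lines are group means and open points are libraries with over 1% of reads on processed pseudogenes. The 4 anti-γδTCR tumors are between 5.66% and 19.2%, and WT + IgG 4 (2.23%) and KO + IgG 4 (0.680%) are the lowest. With all γ constant genes counted, WT + IgG 4 is at 16.4% and anti-IL-38 6 is lowest, at 5.26%.

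How far the genes of the complex varied together was examined for 11 pairs over the 23 libraries on the log2(CPM + 1) scale. Cd3e and Cd3d had a Pearson r of 0.581 (permutation p = 0.00356, 0.0392 after Benjamini-Hochberg adjustment over the 11 pairs) and a Spearman rho of 0.509 (permutation p = 0.0137, adjusted 0.150). Without the 2 libraries farthest from the median of Cd3e, r was 0.460. Within the neutralization experiment (11 libraries) r was 0.448 (permutation p = 0.166) and −0.456 without its 2 farthest libraries, so there it rested on those libraries. Within the blockade experiment (12 libraries) r was 0.738 (permutation p = 0.00544, adjusted 0.0598) and 0.741 without its 2 farthest. Over the 18 libraries with the low pseudogene share, chosen after seeing the data, r was 0.652 for Cd3e with Cd3d and 0.650 for Cd3e with Cd247 (permutation p adjusted 0.0194 for each).

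No other pair passed the adjusted threshold over the 23 libraries. Trbc1 and Trbc2 had r = 0.477 (permutation p = 0.0219, adjusted 0.121) and rho = 0.332, and r was 0.269 without the 2 farthest libraries. Within experiments their r was 0.217 and 0.696. Trdc and Tcrg-C1, both of the γδ receptor, had r = 0.100, and Trac and Trdc, of the alternative receptors, r = 0.0935. Cd3e with Cd3g gave −0.0611. These values rest on 0 to 30 reads per library for Trdc and 0 to 11 for Tcrg-C1.

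**Figure D5:**
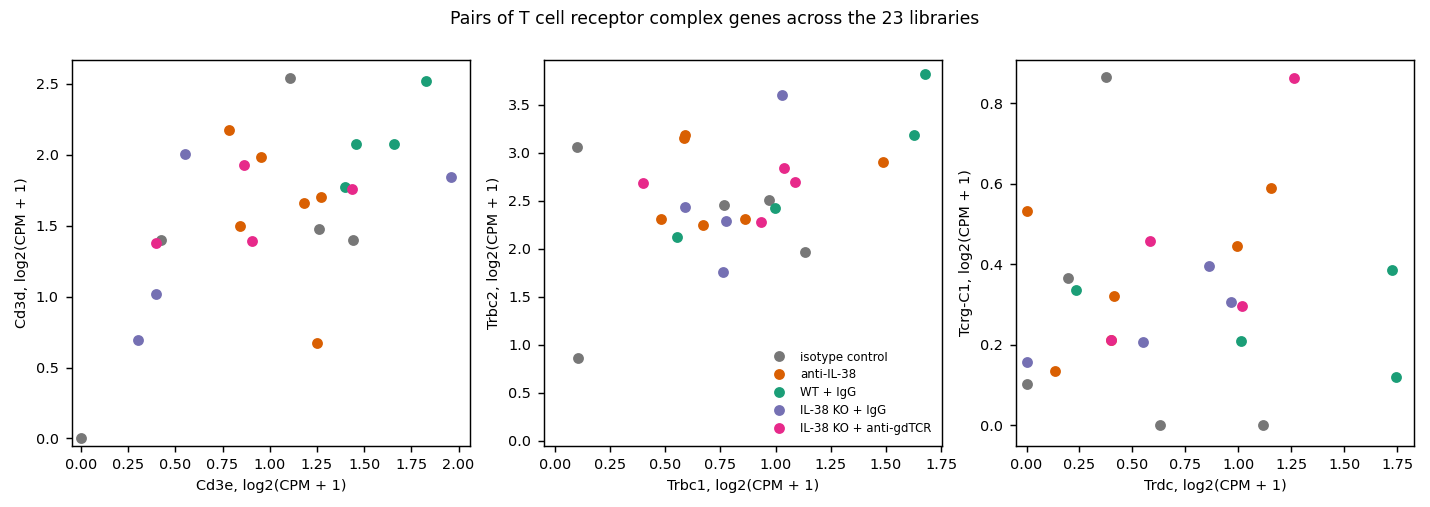
Level of Cd3d against Cd3e, Trbc2 against Trbc1 and Tcrg-C1 against Trdc, each on the log2(CPM + 1) scale on both axes, with 1 point per library. Cd3d increases with Cd3e (r = 0.581), with isotype control 5 at the origin, whereas Trdc and Tcrg-C1 show little relation (r = 0.100).

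Of the genes outside the complex with a mean of at least 1 CPM, those most like Cd3e across the 23 libraries, given as a description, were Tle4 (r = 0.685), Rtp4 (r = 0.676), Ms4a14 (r = 0.675), 2310009A05Rik (r = 0.638) and Zfp658 (r = 0.637), out of 14718 compared. Tle4 encodes a transcriptional corepressor and Rtp4 is an interferon-induced gene.

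Other genes of T cells were read from lists. None of them passed the test in any of the 5 comparisons. The list of TCR proximal signaling genes had 22 members in the tables, led by Csk (46.3 CPM), Plcg1 (39.6 CPM) and Fyn (29.4 CPM), which are widely expressed outside T cells. Of its tested members 7 of 16 were above 0 with anti-IL-38 (median −0.11), 3 of 19 in the knockout (median −0.34) and 5 of 14 with anti-γδTCR (median −0.11). Coreceptors and costimulatory genes, with Cd28 (4.22 CPM), Cd2 (2.72 CPM) and Cd4 (2.04 CPM) at the top, had 6 of 7 above 0 with anti-IL-38 (median 0.67), 1 of 7 in the knockout (median −0.61) and 6 of 7 with anti-γδTCR (median 0.33). T-lineage transcription factors had 3 of 7, 5 of 8 and 1 of 7 above 0 in these comparisons. The leading factors, Gata3 (331 CPM), Runx3 (30.2 CPM) and Ets1 (18.2 CPM), are not particular to T cells, and Gata3 is a luminal mammary factor.

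Genes associated with γδ T cells gave no separate measure of these cells. Maf (143 CPM) and Sox13 (13.4 CPM), which other cells also express, had the highest levels named here, while Il17a had 2 reads, Il17f 1 and Ifng 17 in all libraries together. Of the 5 tested members 4 were above 0 with anti-IL-38, 2 in the knockout and 3 with anti-γδTCR.

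Markers of other cells were read beside these values. NK markers, led by Gzma (2.08 CPM), Klrk1 (1.71 CPM) and Klrd1 (1.50 CPM), were above 0 for 5 of 5 tested with anti-IL-38 (median 1.02), 1 of 6 in the knockout (median −0.58) and 4 of 6 with anti-γδTCR (median 0.08), with no call. Their sum was 1.19 to 14.8 CPM over all libraries. The B cell list was led by Cd22 (12.96 CPM), Pax5 (1.71 CPM) and Cd79b (0.775 CPM), but the defining markers Cd79a and Ms4a1 had 1 and 21 reads in all 23 libraries. Lymph node genes were led by Ccr7 (2.23 CPM) and Cxcl13 (1.66 CPM), and Ccl21a had 0 reads and Ccl19 had 1. The tumors showed the luminal epithelial markers Cdh1 (988 CPM), Epcam (801 CPM) and Krt18 (347 CPM), the leukocyte markers Laptm5 (512 CPM), Cd52 (338 CPM) and Ptprc (214 CPM) and the macrophage markers Csf1r (524 CPM), C1qb (443 CPM) and C1qa (394 CPM). The pan-leukocyte markers had a median difference of −0.14 with anti-IL-38, −0.66 in the knockout and −1.38 with anti-γδTCR, against 1.10, −0.60 and 0.40 for the CD3 chains. With anti-γδTCR, Ptprc differed by 0.36 (CI −0.10 to 0.81), whereas Laptm5, Cd52 and Cd53 were at −1.57, −1.38 and −1.83, without a call. Whether these differences in marker levels reflect cell content, or have a part in the TCR values, was not tested.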

How the data were processed

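Total RNA of 23 dissociated PyMT tumors was sequenced with a stranded 3′ kit as single reads of 75 bases. The submitters' processing notes name STAR, HTSeq, DESeq2 and the build GRCm39, and the study's methods name a commercial pipeline for these kits. The deposited values are a signal per gene, namely read counts that the authors divided by 1 size factor per library, in a table of 19 libraries (normalized together) and one of 8. The 4 IL-38 KO + IgG libraries are in both, with the same reads. Dividing by the smallest step recovered whole reads for 100% of the values (tolerance 0.0001%). CPM were computed from these reads.

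Of 47643 identifiers, 47224 matched a symbol. Groups were compared with limma 3.58.1 (moderated test with trend, two-sided) on log2(normalized count + 1) for genes with a mean of at least 5, with Benjamini-Hochberg adjustment over all genes tested and a threshold of 0.05. Each fit used the libraries of its comparison, within 1 table. edgeR 4.0.16 and DESeq2 1.42.0 on the whole reads, other pseudocounts (0.5 and 5), no filter and a minimum mean of 20, rescaling by TMM, a replicate block and leaving out each library were alternatives. Fold changes on this scale understate those of low genes. Exact permutation tests were run for 36 gene and comparison pairs (9 genes, 4 comparisons). Of these, the 4 of Tcrg-C1 are printed. The fits were also run on simulated counts in which only genes with a mean of at least 20 reads were changed. Most TCR complex genes were below such a mean, so that run does not cover them. Same-numbered libraries did not deviate together (r −0.169 to 0.0746), and the labels name no litter or batch.

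The genes and lists were chosen with earlier results of these data known. All 9 TCR complex genes are named. From each other list every gene past the threshold, otherwise the 3 with the highest mean CPM, is named, with defining markers at or near 0 and Lck added after their values were seen. Some list genes are not reported here. Of the genes most like Cd3e, 5 are named. Nothing in the labels says that libraries of a group came from separate litters or batches, so p-values measure the spread between these tumors. No pair of libraries agreed within sampling noise (chi-square per degree of freedom 15.9 to 125 within groups). Promoters and proteins were not used here.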

Additional observations from a re-analysis of the deposited data

Results flagged for a closer look

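Of 45 tests of single libraries against their group (9 genes in 5 groups, Dixon's test), 4 were past the 95% critical value, where chance gives about 1 in 20. Cd3e was far above the other IL-38 KO + IgG tumors in replicate 3, at 2.90 CPM (46 reads). Cd247 was far above that group in replicate 4, at 6.84 CPM (59 reads), a library that also had the high pseudogene share. Trac stood out in anti-IL-38 replicate 2 at 3.54 CPM (49 reads), and Trbc1 in anti-IL-38 replicate 4 at 1.81 CPM (20 reads).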

How the results depend on the processing

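None of the TCR complex genes passed the threshold in any of the 106 alternative fits. Of 820 alternative differences 790 kept their direction and 30 changed it. By edgeR and DESeq2, Cd247 changed to 0.18 and 0.17 in IL-38 KO against WT and to −0.17 and −0.15 with anti-γδTCR, and in IL-38 inhibited against controls Cd3d changed to −0.27 by both and Trbc1 to −0.29 by both. With a pseudocount of 5, Cd3d was −0.12 and Trbc1 −0.047 in that comparison. Leaving out each library in turn moved Cd3d from −0.11 to 1.39 and Trdc from −0.35 to 0.65 with anti-IL-38, Cd247 from −0.67 to 0.19 in the knockout, and Cd3g from −0.0013 to 0.49 and Cd247 from −0.16 to 0.71 with anti-γδTCR. In IL-38 inhibited against controls it moved Cd3d from −0.54 to 0.21, Trac from −0.023 to 0.53, Trbc1 from −0.19 to 0.29 and Trbc2 from −0.035 to 0.43. The lowest Cd3d and Trdc values with anti-IL-38, and the lowest Cd3d and Trbc2 values of the inhibited comparison, were those without isotype control 5. The cause of these reversals was not tested.

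With Tcrg-C2, Tcrg-C3 and Tcrg-C4 added, the γδ share was 21.6% in isotype control, 15.5% in anti-IL-38, 25.7% in WT + IgG, 24.9% in IL-38 KO + IgG and 23.9% in IL-38 KO + anti-γδTCR, since more γδ genes were then counted. Leaving out each library moved the mean share between 8.49% and 11.7%, 6.99% and 8.77%, 12.1% and 18.8%, 8.69% and 15.04%, and 9.36% and 13.9% in that order of groups. The r of Cd3e with Cd3d no longer passed within the experiments (0.448 and 0.738), where fewer libraries enter. Over the 18 libraries with the low pseudogene share, an alternative added after seeing the data, r of Cd3e with Cd247 passed at 0.650, and that of Cd3e with Cd3g (0.0292) and of Trdc with Tcrg-C1 (−0.0854) changed sign, as did Trac with Trdc within the blockade experiment (−0.273).

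With the replicate number as a block, 0 TCR complex genes were called in each of the 5 comparisons, with smallest limma adjusted p of 0.489, 0.299, 0.506, 0.382 and 0.588. The numbers were not shown to pair the tumors: with them, 0 of 10 libraries correlated best with their own number with anti-IL-38, 3 of 8 in the knockout and 0 of 8 with anti-γδTCR. Depth limits these results, since Tcrg-C1 was below the minimum mean in every comparison.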

Other observations

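Reads were also assigned to receptor segment genes, although a 3′ library rarely reaches them. Whether these reads came from rearranged transcripts was not tested. Of 260 variable, diversity and joining segments listed, 23 had a read, with 115 reads of Traj18 in 21 libraries and 68 reads of Trgv2 in 16 libraries at the top. Both were picked after their counts were seen. Summed over all segments, the level was 0 to 5.27 CPM per library, and WT + IgG 4, the library with the highest level of Trbc2, had the highest value.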
